A study of Mus musculus with 4 samples.

Results

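Foxp3 is the forkhead transcription factor that defines regulatory T cells (Treg). The 8 genes described here are Foxp3, its forkhead relative Foxp1, the runt-domain factors Runx1, Runx2 and Runx3, their shared subunit Cbfb, and the forkhead factors Foxo1 and Foxo3. They were found by name: of 13 two-colour Agilent arrays, every non-control probe was taken whose gene name is on this list or is an older alias of it (Foxo3a for Foxo3), and its accession was checked. The rule uses no measured value. It gave 18 probes for 8 of the 27666 distinct names on the array. Of these probes, 16 passed a filter on dim signals (well above background in 3 or more of 26 channels). The 8 genes are 8 of 19900 genes tested, each at its probe with the highest mean signal.

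Foxp3 switches on genes of the suppressor programme and holds down effector cytokine genes, and it does so in complexes with other DNA-binding proteins, among them Runx1 bound to Cbfb. Runx factors with Cbfb also bind the Foxp3 gene and help to keep it on, and Foxo1 and Foxo3 bind regulatory regions of Foxp3 and are needed for normal Treg development. Foxo proteins leave the nucleus once the kinases Akt or Sgk1 phosphorylate them, so their mRNA level does not measure their activity.

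The RNA came from CD4+ cells of mouse lymph node. Every group grew for 4 days in plates coated with anti-CD3 at 1 ug/ml, which engages the T cell receptor, and every group had IL2 at 100 units/ml, a growth factor of activated T cells, in a 3-day incubation. The first group also had TGFb at 4 ng/ml (3 arrays), the second TGFb with IL6 at 25 ng/ml (4 arrays), the third IL6 without TGFb (3 arrays), and the last IL2 alone (3 arrays). The titles give the cytokines of each group, and the doses stand in a protocol text that all groups share. TGFb induces Foxp3 in activated CD4 cells, and IL6 given with it favours Th17 cells; the series title asks about TGFb-dependent conversion to Treg and its inhibition by IL6. On each array 1 Treg and 1 T-effector sample of the same condition were hybridised in opposite dyes. The labels do not say how the Treg samples were separated from the T-effector samples, nor give the strain, age or reporter of the mice. Nor is it stated that the arrays of 1 condition are from different cultures or mice, so a p-value here speaks only of the spread from array to array, and that spread may be technical.

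There were 5 slides, named A to E here, and only slide D held both TGFb and IL2 arrays (1 each). Between 38.9% and 69.7% of probes were well above background in the Treg channels, and between 41.7% and 67.0% in the T-effector channels. The negative control spots of slide B had a median Cy3 signal of 118 to 123, against 3.59 to 25.4 on the other slides. All 10 CD4 T cell markers looked at were measured, with a summed signal of 42200 to 61800 in Treg channels and 33700 to 58200 in T-effector channels. All 10 B cell markers were also measured, and of them 1 was higher and 0 lower in Treg under TGFb (median -0.01), where 4.15% of all genes were higher. Under TGFb their summed signal was 9270 to 10200 in Treg channels and 2740 to 3610 in T-effector channels, while under IL2 alone it was 5310 to 7130 in Treg channels and 6200 to 6830 in T-effector channels. Of 10 myeloid and dendritic markers 7 were measured, and S100a8 was well above background in no channel. Of 8 erythroid and stromal markers 5 were measured, and Cdh5 was well above background in no channel. With TGFb over IL2 alone 7 of the 10 B cell markers were lower in T-effector samples (median -0.72) and 4 lower and 1 higher in Treg samples (median -0.37). Of all genes 4.3% passed in either direction in T-effector samples and 7.75% in Treg samples. All 9 CD8 T and NK cell markers were measured, with a summed signal of 1760 to 8750 in Treg channels and 3200 to 6070 in T-effector channels. With IL2 alone 3 of them had a lower ratio and 0 a higher one (median -0.39), where 3.55% of all genes were lower. Of 13 Treg channels, 11 had Ddx3y well above background, 10 Kdm5d, 5 Uty and 13 Eif2s3y, all Y-linked genes. Of 13 T-effector channels, 0 had Ddx3y, Kdm5d or Uty well above background and 5 had Eif2s3y. Treg and T-effector samples thus differed in Y-linked signal. In the Treg over T-effector ratios below, the kind of sample and the mice used cannot be told apart. The part of other cells, or of the mice used, in the results below was not tested.

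Foxp3 was the member with the clearest split between the samples: it was higher in Treg in all 4 conditions, and Foxo1 and Runx2 were higher in Treg under some of them. With IL2 alone 2 of 8 members, Foxp3 and Runx2, were higher in Treg and 0 were lower, where 7.42% of all genes were higher and 3.55% lower (11% in either direction). Under TGFb 2 of 8, Foxp3 and Foxo1, were higher and 0 lower, where 4.15% of all genes were higher and 1.83% lower (5.98% in either direction). Under TGFb with IL6 only Foxp3 of the 8 passed, as higher, where 3.51% of all genes were higher and 2.35% lower (5.85% in either direction). Under IL6 without TGFb 3 of 8, Foxp3, Foxo1 and Runx2, were higher and 0 lower, where 3.77% of all genes were higher and 2.1% lower (5.87% in either direction). Passing means an adjusted p under 0.05 in limma's moderated test, with Benjamini-Hochberg adjustment over all genes of a comparison. The values that follow are log2 differences ± their standard error from these fits, or log2 signals of single arrays. Signals are background-corrected with an offset added, so a probe with no signal sits near the log2 of that offset, and differences of dim genes come out smaller than they are. In RNA from whole samples, fewer cells of a type and less RNA per cell cannot be told apart.

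Between conditions Foxo1 and Runx2 passed in Treg samples, and Foxp3 passed in neither kind of sample. Between TGFb and IL2 alone, Foxo1 was higher and Runx2 lower in Treg samples, 2 of 8 members where 7.75% of all genes passed, and 0 of 8 passed in T-effector samples, where 4.3% of all genes did (limma; 1 member, Foxp3, had an unadjusted p under 0.05). Between TGFb with IL6 and TGFb, Foxo1 and Runx2 were both higher in Treg samples (2 of 8, against 5.6% of all genes), and Foxo1 was higher in T-effector samples (1 of 8, against 7.42%). Between IL6 and IL2 alone, only Foxo1 passed in Treg samples (1 of 8, against 0.945%), and 0 of 8 passed in T-effector samples (limma; 2 members, Foxo1 and Runx2, at an unadjusted p under 0.05; 0.794% of all genes passed). Between TGFb with IL6 and IL6, Foxo1 was higher in Treg samples (1 of 8, against 10%) and in T-effector samples (1 of 8, against 11.1%). Comparisons that have a condition in common share its arrays.

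**Figure D1:**
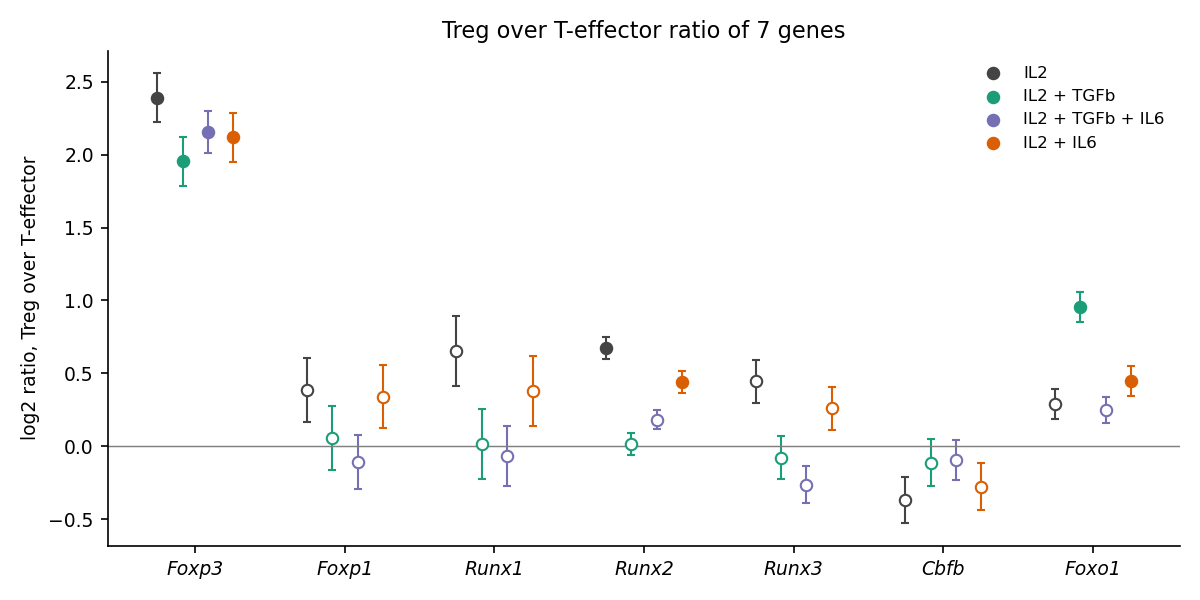
Fitted log2 ratio of Treg over T-effector signal for 7 of the 8 genes (Foxo3, near background, is left out) in the 4 conditions, with bars for the standard error; filled points passed the threshold and open points did not. Foxp3 lies between 1.95 and 2.39 in all 4 conditions, and Foxo1 under TGFb, at 0.95, is the highest value of the other genes shown.

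Foxp3 was measured by 1 probe, A_51_P401096, at chrX:6028182-6028241 on the plus strand of mm7, the mouse build of the array files, and was well above background in 13 of 13 Treg and 13 of 13 T-effector channels. With IL2 alone its log2 signal was 8.57, 8.12 and 8.75 on the 3 Treg channels, against 6.07, 6.23 and 6.19 on the T-effector channels of the same arrays. With TGFb it was 8.83, 9.04 and 8.47 in Treg, against 6.37, 7.19 and 6.72 in T-effector samples. No T-effector channel of either condition reached the lowest Treg channel. With TGFb and IL6 it was 9.06, 9.18, 8.87 and 8.94 in Treg, against 6.35, 7.20, 6.81 and 7.07 in T-effector samples. With IL6 without TGFb it was 8.71, 8.82 and 7.89 in Treg, against 6.42, 6.24 and 6.17 in T-effector samples. The 2 kinds of sample did not overlap in any condition, and Treg was higher on 13 of 13 arrays. The share of all genes whose 2 kinds of sample did not overlap was not computed, here or for the members below. If Foxp3 or a reporter of it was used to separate the samples, this split is the selection itself, and the labels do not settle that.

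The fitted ratio of Foxp3 was 2.39 ± 0.17 with IL2 alone (5.25-fold, limma adjusted p = 2.14e-05), 1.95 ± 0.17 with TGFb (3.87-fold, limma adjusted p = 5.8e-05), 2.16 ± 0.14 with TGFb and IL6 (4.46-fold, limma adjusted p = 1.48e-05) and 2.12 ± 0.17 with IL6 (4.35-fold, limma adjusted p = 5.28e-05). These ratios did not differ past the threshold between conditions: TGFb minus IL2 was -0.44 ± 0.24 (limma adjusted p = 0.295) and TGFb with IL6 minus TGFb was 0.20 ± 0.22 (limma adjusted p = 1.00). With the spatial trend removed, the Foxp3 difference of TGFb minus IL2 was -0.59 and passed (limma adjusted p = 0.0329). When all spots entered the fit of the background model, the ratio under TGFb was 1.1 and did not pass (limma adjusted p = 0.149). With Agilent's own processed signals the 4 ratios were 4.31, 3.62, 3.26 and 3.57, in the order IL2, TGFb, TGFb with IL6 and IL6, and the authors' deposited table gives 3.67, 3.42, 3.43 and 3.73 in the same order.

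Within Treg samples Foxp3 averaged 8.78 ± 0.29 with TGFb and 8.48 ± 0.33 with IL2 alone (log2 signal, SD, n = 3 each), a difference of 0.23 ± 0.23 that did not pass (limma adjusted p = 0.687). It averaged 9.01 ± 0.14 with TGFb and IL6 (n = 4), which was 0.27 ± 0.21 over TGFb (limma adjusted p = 0.657), so no lower Foxp3 signal was measured in Treg samples when IL6 was added to TGFb. In T-effector samples Foxp3 averaged 6.76 ± 0.41 with TGFb and 6.16 ± 0.08 with IL2 alone (SD, n = 3 each). All 3 TGFb arrays were above all 3 IL2 arrays, where the arrays of 23.6% of all genes did not overlap. The difference of 0.67 ± 0.23 missed the threshold (limma adjusted p = 0.118) and passed with slide as a block (0.72, limma adjusted p = 0.0379); on slide D alone it was 0.48. The highest 3 T-effector signals of Foxp3, 7.19, 7.20 and 7.07, were those of slide B, where the negative control spots were brightest in Cy3. The signals 7.19 and 7.20 were read in Cy5, where the median of the negative control spots was 2.68 and 2.8. Only 7.07 was read in Cy3, and the part of that background was not tested.

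**Figure D2:**
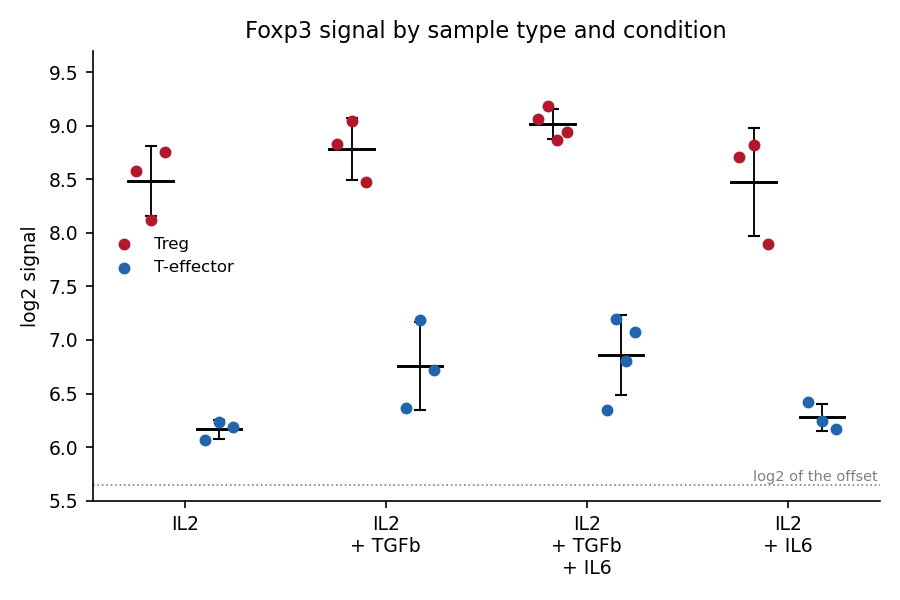
Log2 signal of the Foxp3 probe on each array (points) by condition, with Treg in red left of T-effector in blue, black lines for means and bars for the SD; the dotted line is the log2 of the offset. Treg points lie between 7.89 and 9.18, and T-effector points between 6.07 and 7.20.

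Of the genes that Foxp3 is known to induce, more passed as higher in Treg without TGFb than with it. With IL2 alone 9 of 13 measured genes of this list were higher and 0 lower (median 0.73, against a median of 0.02 over all genes), and with IL6 8 were higher and 0 lower (median 0.85, against 0.01). With TGFb 5 were higher and 0 lower (median 0.42, against -0.01), and with TGFb and IL6 6 were higher and 0 lower (median 0.46, against -0.02). Of all genes 7.42% were higher with IL2 alone, 3.77% with IL6, 4.15% with TGFb and 3.51% with TGFb and IL6. The ratio was lower with TGFb than with IL2 alone for 5 of 13 and higher for 0, where 3.53% of all genes were lower. Ikzf2, which encodes Helios, a Treg transcription factor, had a ratio of 3.23 ± 0.19 with IL2 alone, 3.12 ± 0.19 with IL6 and 0.81 ± 0.19 with TGFb. Its ratio was lower by -2.42 ± 0.27 with TGFb than with IL2 alone (limma adjusted p = 0.00108), and its signal in Treg samples fell by 1.94 ± 0.22. Ctla4, an inhibitory receptor, had 1.49 ± 0.14 with IL2 alone and 1.36 ± 0.14 with IL6. Il2ra, the IL2 receptor alpha chain, had 1.09 ± 0.19 with TGFb and 0.70 ± 0.16 with TGFb and IL6. Nt5e, the ectoenzyme CD73, rose with TGFb over IL2 alone in both kinds of sample, by 3.80 ± 0.37 in Treg and 3.87 ± 0.37 in T-effector samples.

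Genes that Foxp3 is known to repress passed as lower in Treg in the conditions with TGFb. With TGFb 0 of 10 were higher and 5 lower (median -0.58), and with TGFb and IL6 0 were higher and 5 lower (median -0.70), where 1.83% and 2.35% of all genes were lower. With IL2 alone 2 were higher and 0 lower (median -0.02), and with IL6 2 were higher and 0 lower (median -0.27), where 7.42% and 3.77% of all genes were higher. The ratio was lower with TGFb than with IL2 alone for 5 of 10 and higher for 0 (median -0.93, against -0.02 over all genes, of which 3.53% were lower). Satb1, a chromatin organiser, had a ratio of -1.23 ± 0.15 with TGFb, and Il21, a cytokine gene of helper T cells, had -1.30 ± 0.31. Il7r, the IL7 receptor chain, was higher in Treg by 0.93 ± 0.12 with IL2 alone and lower, at -0.80 ± 0.10, with TGFb and IL6. In Treg samples 1 of 10 was higher and 6 lower with TGFb than with IL2 alone (median -1.05), among them Il2 at -1.85 ± 0.10 and Satb1 at -2.51 ± 0.18. In that comparison 7.75% of all genes passed in either direction. When IL6 was added to TGFb, Il21 rose by 4.55 ± 0.36 in Treg and 4.33 ± 0.36 in T-effector samples.

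Of 22 other proteins known to bind Foxp3, 1 was higher and 1 lower in Treg than in T-effector samples with IL2 alone, 2 and 1 with TGFb, 1 and 3 with TGFb and IL6, and 0 and 1 with IL6. Of all genes, 11%, 5.98%, 5.85% and 5.87% passed in either direction in these 4 conditions. Irf4, a factor of activated lymphocytes, had -0.88 ± 0.19 with IL2 alone, and Ikzf4, which encodes Eos, had 0.87 ± 0.22. When IL6 was added to TGFb, 4 rose and 0 fell in Treg samples and 5 rose and 0 fell in T-effector samples (2.84% and 4.17% of all genes were higher). The list's medians were 0.14 in Treg and 0.34 in T-effector samples, against -0.03 over all genes in both. Among them was Satb1, at 1.98 ± 0.17 in Treg and 1.48 ± 0.17 in T-effector samples. Gata3, the Th2 factor, fell by 2.32 ± 0.48 in Treg and by 1.92 ± 0.48 in T-effector samples with TGFb relative to IL2 alone.

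Foxo1, which in T cells drives survival genes such as Il7r, was the member that changed in most comparisons. Its tested probe, A_51_P138044, lies at chr3:52472787-52472846 on the plus strand of mm7, and a further probe, A_52_P453884, at chr3:52475893-52475952; both were well above background in every channel. With IL2 alone the log2 signal of the tested probe was 10.23, 10.39 and 10.37 in Treg, against 10.02, 10.12 and 10.03 in T-effector samples. With TGFb it was 11.19, 11.30 and 11.04 in Treg, against 9.96, 10.47 and 10.20 in T-effector samples. All TGFb Treg signals were above all IL2 Treg signals (the arrays of 21.2% of all genes did not overlap in this comparison), while the T-effector signals of the 2 conditions overlapped. With TGFb and IL6 it was 11.78, 11.97, 11.35 and 11.87 in Treg, against 11.27, 11.72, 11.28 and 11.72 in T-effector samples. With IL6 without TGFb it was 10.87, 11.21 and 11.05 in Treg, against 10.51, 10.70 and 10.52 in T-effector samples. The 2 kinds of sample overlapped only with TGFb and IL6, where the T-effector signals were the highest of any condition.

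The ratio of Foxo1 between Treg and T-effector samples was 0.95 ± 0.10 with TGFb (1.94-fold, limma adjusted p = 0.000265) and 0.45 ± 0.10 with IL6 (limma adjusted p = 0.0272). It was 0.29 ± 0.10 with IL2 alone (limma adjusted p = 0.0886) and 0.25 ± 0.09 with TGFb and IL6 (limma adjusted p = 0.128), neither past the threshold. The ratio was higher with TGFb than with IL2 alone by 0.67 ± 0.15 (limma adjusted p = 0.0271), in a comparison where 2 of 8 members and 5.89% of all genes passed; on slide D it was 0.57. It was lower with TGFb and IL6 than with TGFb, at -0.71 ± 0.13, and missed the threshold (limma adjusted p = 0.0644), in a comparison that 0 of 8 members and 0.291% of all genes passed (1 member at an unadjusted p under 0.05). With the paired arrays as a replicate block that difference was -0.69 ± 0.07 and passed (limma adjusted p = 0.00203). The further probe gave 0.52 ± 0.10 with TGFb (limma adjusted p = 0.0127) and no other ratio past the threshold, and its TGFb minus IL2 difference in ratio, 0.26, did not pass (limma adjusted p = 0.305). Centring each array on its median instead of loess shifted the all-gene median by -0.30 with IL2 alone and -0.32 with IL6, and it turned the direction of Foxo1 under IL6 to -0.58 and under IL2 alone to -0.63, while the ratio under TGFb kept its direction and its call. The call under IL6 was also lost without IL6 arrays 2 or 3 (0.36 to 0.44, limma adjusted p = 0.0823 to 0.255), with slide as a block (0.39, limma adjusted p = 0.053) and without slide B or slide E (0.44 to 0.51, limma adjusted p = 0.0675 to 0.0786). The call of TGFb minus IL2 was lost without IL2 arrays 1 or 2 or TGFb arrays 1 or 3 (0.55 to 0.72, limma adjusted p = 0.0697 to 0.122), with all spots in the background model (0.67, limma adjusted p = 0.0868) and without slide B (0.74, limma adjusted p = 0.0798).

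In Treg samples Foxo1 averaged 11.75 ± 0.27 with TGFb and IL6 (n = 4), 11.18 ± 0.13 with TGFb, 11.04 ± 0.17 with IL6 and 10.33 ± 0.09 with IL2 alone (log2 signal, SD, n = 3 each). The signals of TGFb and of IL6 overlapped, and every array of IL2 alone was below every array of the other conditions. For TGFb against IL2 alone, the arrays of 21.2% of all genes did not overlap. The shares for IL6 and for TGFb with IL6 against IL2 alone are not given here. TGFb was over IL2 by 0.83 ± 0.15 (1.78-fold, limma adjusted p = 0.000977), TGFb with IL6 over TGFb by 0.57 ± 0.14 (limma adjusted p = 0.0174), and TGFb with IL6 over IL6 by 0.71 ± 0.14 (limma adjusted p = 0.00186). IL6 was over IL2 by 0.70 ± 0.15 (limma adjusted p = 0.0303), and on slide A, the only slide with both, by 0.98. The further probe passed in the first 3 of these, at 0.65, 0.84 and 1.01, and not for IL6 over IL2, at 0.48 (limma adjusted p = 0.112). The call for IL6 over IL2 was lost without any of the 3 IL2 arrays, without TGFb array 3 and without IL6 arrays 2 or 3 (0.61 to 0.73, limma adjusted p = 0.0514 to 0.174), and that for TGFb with IL6 over TGFb without TGFb arrays 1 or 3 or TGFb with IL6 arrays 2 or 4 (0.51 to 0.57, limma adjusted p = 0.0501 to 0.123). Without slide E, which held 4 arrays, the call for TGFb with IL6 over IL6 was lost (0.53, limma adjusted p = 0.231), as was that for IL6 over IL2 (0.87, limma adjusted p = 0.0894). The call for TGFb with IL6 over TGFb was lost without slide B or slide E (0.45 to 0.56, limma adjusted p = 0.127 to 0.214).

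In T-effector samples Foxo1 averaged 11.50 ± 0.26 with TGFb and IL6 (n = 4) and 10.21 ± 0.26 with TGFb (n = 3; log2 signal, SD). The difference of 1.28 ± 0.14 (2.43-fold, limma adjusted p = 2.89e-06) was 1.25, 1.07 and 1.32 within slides B, D and E. Over IL6 without TGFb, which averaged 10.58 ± 0.10 (n = 3), it was higher by 0.91 ± 0.14 (limma adjusted p = 0.000145). TGFb minus IL2 was 0.17 ± 0.15 (limma adjusted p = 0.610) and IL6 minus IL2 was 0.54 ± 0.15 (limma adjusted p = 0.169), neither past the threshold. With both cytokines, then, the T-effector signal lay above each of them alone. The further probe gave 1.13 over TGFb and 1.1 over IL6, both past the threshold.

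**Figure D3:**
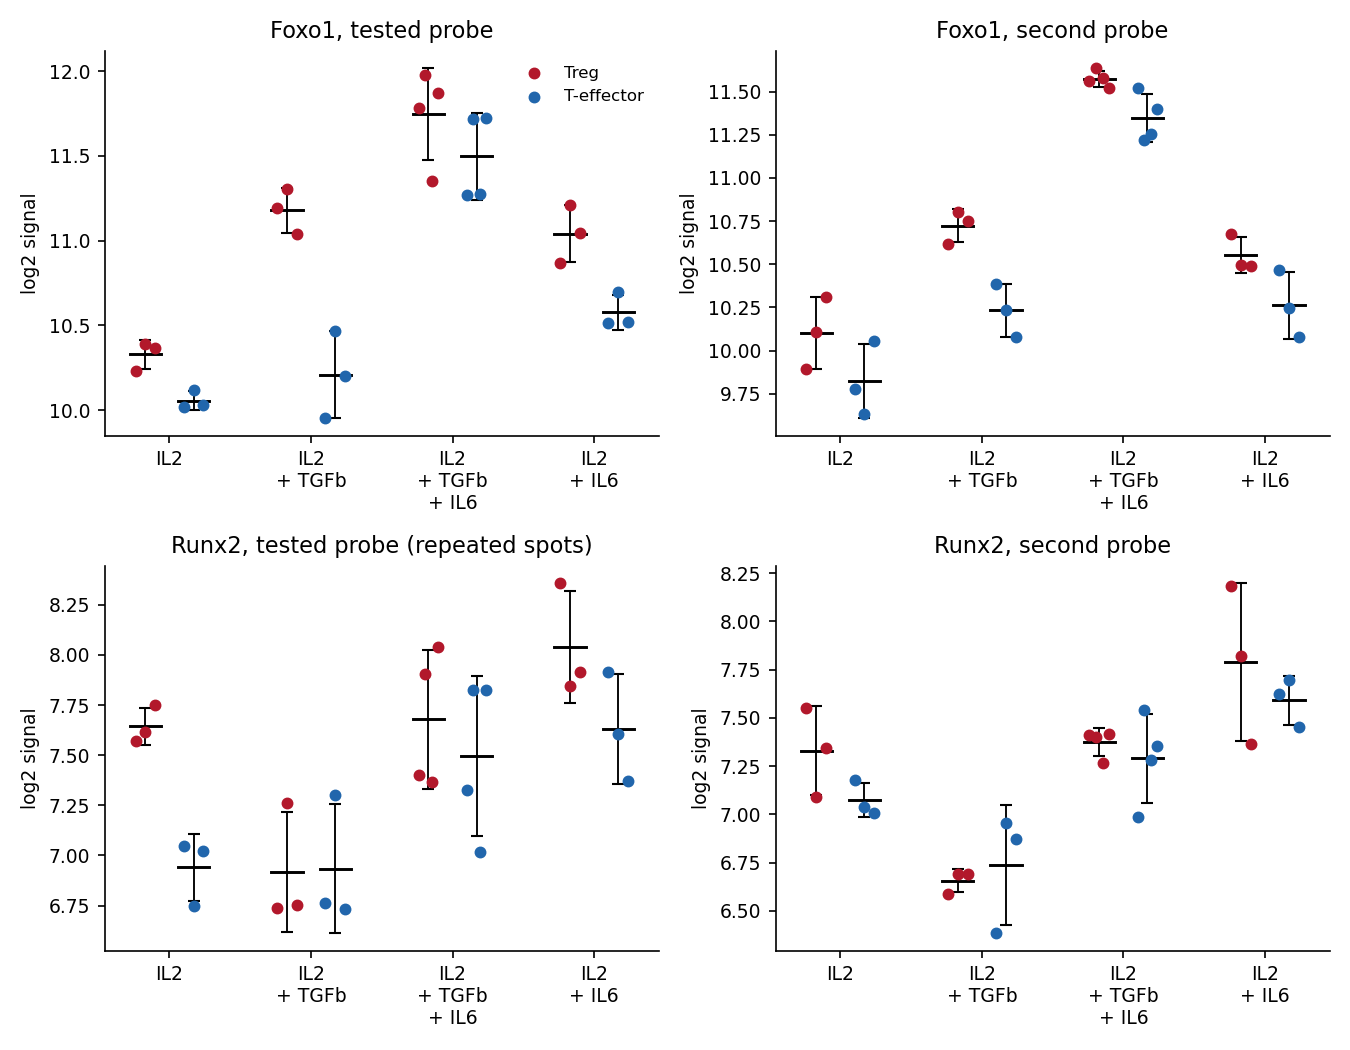
Log2 signal of the tested and a further probe each of Foxo1 and Runx2 on each array (points) by condition, with Treg in red left of T-effector in blue, black lines for means and bars for the SD. The tested probe of Foxo1 reaches 11.27 to 11.72 in T-effector samples with TGFb and IL6. The tested probe of Runx2 in Treg samples with TGFb has arrays at 6.74, 7.26 and 6.75.

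More of the known targets of Foxo factors rose than fell with IL6 over TGFb. When IL6 was added to TGFb, 5 of 12 measured targets rose and 1 fell in Treg samples (median 0.99, against -0.03 over all genes, of which 2.84% were higher), and 8 rose and 1 fell in T-effector samples (median 1.35, against -0.03; 4.17% of all genes were higher). S1pr1, the receptor that lets T cells leave lymph nodes, rose by 2.29 ± 0.41 in Treg and 2.59 ± 0.41 in T-effector samples. Klf2, a transcription factor of resting T cells, rose by 2.25 ± 0.42 in T-effector samples. With TGFb over IL2 alone, where Foxo1 was higher in Treg, 0 targets rose and 4 fell in Treg samples (median -0.27, against -0.01 over all genes, of which 7.75% passed in either direction), among them Tcf7, a factor of naive and memory T cells, at -1.20 ± 0.28 and Bcl6, the factor of follicular helper cells, at -2.17 ± 0.52. In Treg samples, then, most targets that passed rose with IL6 over TGFb and those that passed fell with TGFb over IL2, while Foxo1 was higher in both. The 2 comparisons share the TGFb arrays, and Il7r stands on this list, on that of genes Foxp3 represses and on that of Runx-regulated genes.

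Of 13 kinases and regulators that act on Foxo proteins, Sgk1, a kinase that sends Foxo proteins out of the nucleus, had the largest ratio among those that passed in each condition. Its ratio of Treg over T-effector was 1.29 ± 0.21 under IL2 alone, 2.50 ± 0.21 under TGFb, 1.15 ± 0.18 under both cytokines and 1.07 ± 0.21 under IL6, all past the threshold. In Treg samples it rose by 2.58 ± 0.32 with TGFb over IL2 alone and by 1.70 ± 0.30 with TGFb and IL6 over TGFb; in T-effector samples it rose by 1.38 ± 0.32 and 3.04 ± 0.30. Foxo1 and Sgk1 had the same sign in each of these 8 values, with Foxo1 not past the threshold in the ratios of IL2 alone and of TGFb with IL6 and in T-effector samples with TGFb over IL2. Over the list, 2 passed as higher and 3 as lower with IL2 alone, 2 and 0 with TGFb, 1 and 1 with TGFb and IL6, and 3 and 1 with IL6. The list's medians in this order were 0.09, 0.09, 0.05 and 0.25, and the shares of all genes that were higher and lower were 7.42% and 3.55% with IL2 alone, 4.15% and 1.83% with TGFb, 3.51% and 2.35% with TGFb and IL6, and 3.77% and 2.1% with IL6. Pik3cd, a catalytic subunit of the kinase upstream of Akt, rose by 0.85 ± 0.17 in Treg and 0.67 ± 0.17 in T-effector samples with IL6 over TGFb.

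Runx2, a runt-domain factor known as the master gene of bone formation, was lower with TGFb than with IL2 alone and higher with IL6 added to TGFb in Treg samples. Its tested probe, A_51_P230942, lies at chr17:42727803-42727862 on the minus strand of mm7 and is printed 10 times on each array. Between the 7 to 10 spots not flagged as outliers, the log2 ratio of Cy5 over Cy3 had an SD of 0.066 to 0.227. With IL2 alone the log2 signal of this probe was 7.57, 7.62 and 7.75 in Treg, against 7.05, 6.75 and 7.02 in T-effector samples. With TGFb it was 6.74, 7.26 and 6.75 in Treg, against 6.76, 7.30 and 6.73 in T-effector samples. The samples were apart with IL2 alone and lay together with TGFb. With TGFb and IL6 it was 7.40, 7.90, 7.37 and 8.04 in Treg, against 7.32, 7.82, 7.02 and 7.83 in T-effector samples. With IL6 without TGFb it was 8.36, 7.85 and 7.91 in Treg, against 7.91, 7.61 and 7.37 in T-effector samples. In both of these conditions the 2 kinds of sample overlapped.

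The ratio of Runx2 was 0.67 ± 0.08 with IL2 alone (1.60-fold, limma adjusted p = 0.000481) and 0.44 ± 0.08 with IL6 (limma adjusted p = 0.00787). It was 0.02 ± 0.08 with TGFb (limma adjusted p = 0.946) and 0.18 ± 0.06 with TGFb and IL6 (limma adjusted p = 0.133). The ratio was lower with TGFb than with IL2 alone, at -0.66 ± 0.11 (limma adjusted p = 0.00781), and by -0.85 on slide D. Median centring turned the sign under IL6 to -0.12, and the call under IL6 was lost without IL6 array 3 (0.43, limma adjusted p = 0.0971) and without slide E (0.34, limma adjusted p = 0.217). Under IL2 alone the ratio was 0.38 with all spots in the background model and 0.28 with median centring, neither past the threshold (limma adjusted p = 0.0618 and 0.0974). The difference of TGFb minus IL2 was not past the threshold with all spots in the background model (-0.39, limma adjusted p = 0.303), with median centring (-0.20, limma adjusted p = 0.4), without TGFb array 3 (-0.59, limma adjusted p = 0.0855) or without slide B (-0.67, limma adjusted p = 0.058). A further Runx2 probe, A_52_P415319, had ratios of 0.29 ± 0.13 with IL2 alone (limma adjusted p = 0.179) and 0.16 with IL6 (limma adjusted p = 0.509), the same sign and not past the threshold.

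In Treg samples Runx2 averaged 6.92 ± 0.30 with TGFb and 7.65 ± 0.09 with IL2 alone (log2 signal, SD, n = 3 each). All 3 TGFb arrays were below all 3 IL2 arrays, where the arrays of 21.2% of all genes did not overlap. The difference was -0.70 ± 0.20 (limma adjusted p = 0.0347), with -0.86 on slide D. Adding IL6 to TGFb brought 7.68 ± 0.34 (n = 4), higher by 0.74 ± 0.19 (limma adjusted p = 0.0176) and by 0.71, 0.61 and 0.66 within slides B, D and E. In T-effector samples the same addition gave 0.58 ± 0.19, not past the threshold (limma adjusted p = 0.0657), and 0.45 ± 0.08 with the replicate block, past it (limma adjusted p = 0.00516). The further probe passed for both Treg differences, at -0.71 (limma adjusted p = 0.0133) and 0.73 (limma adjusted p = 0.00749). With TGFb and IL6 the tested probe was not past the threshold against IL6 in Treg, at -0.38 ± 0.19 (limma adjusted p = 0.256). IL6 over IL2 alone was 0.43 ± 0.20 in Treg (limma adjusted p = 0.565) and 0.66 ± 0.20 in T-effector samples (limma adjusted p = 0.235), neither past the threshold. A dimmer probe, A_52_P460545, was well above background in 0 of 4 Treg channels with TGFb and IL6 and in 3 of 3 with IL6, and no fold is read from it. The call for TGFb over IL2 in Treg was lost without any of the 3 IL2 arrays or TGFb arrays 1 or 3 (-0.73 to -0.57, limma adjusted p = 0.0678 to 0.214), and that for TGFb with IL6 over TGFb without TGFb arrays 1 or 3 or TGFb with IL6 arrays 2 or 4 (0.62 to 0.67, limma adjusted p = 0.0716 to 0.148). The first was also lost with all spots in the background model (-0.51, limma adjusted p = 0.107) and without slide E (-0.62, limma adjusted p = 0.174), and the second without slide B or slide E (0.64 to 0.75, limma adjusted p = 0.0688 to 0.133).

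**Figure D4:**
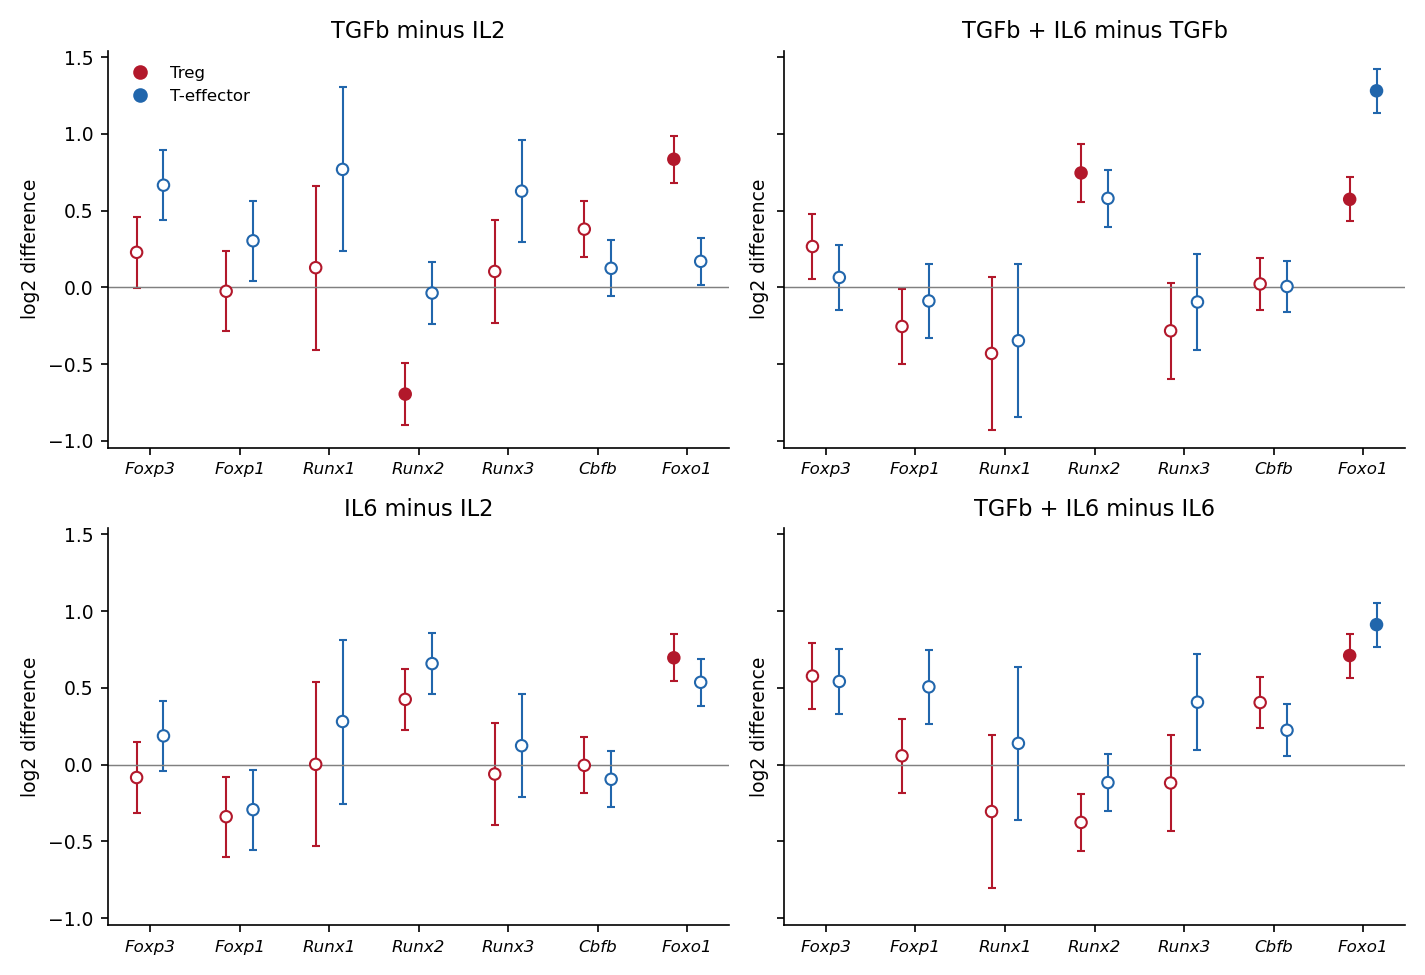
Fitted log2 differences between conditions for 7 of the 8 genes (Foxo3, near background, is left out) in 4 panels, with Treg samples left of T-effector samples in each, bars for the standard error, filled points past the threshold and open points not past it. Foxo1 is filled in every panel for Treg and at 1.28 and 0.91 for T-effector samples, and Runx2 lies at -0.70 and 0.74 in Treg.

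The 3 Runx genes have a sequence in common that the choice by name did not use. Each is known to be transcribed from more than 1 promoter, and the RefSeq table (mouse build GRCm38.p6) gives 13 windows for the 8 genes, each of 300 bases from 250 before to 50 after a transcript start. A RUNX motif, ACCACA or its reverse complement TGTGGT, lies in 3 of these 13 windows and in 16.8% of all 32851 windows of the table. The tandem form ACCACAGAACCACA, which holds the RUNX motif at both ends, lies in 4 of the 32851 windows on either strand: those of Runx1, Runx2 and Runx3 shown next, and that of Gm16225, which overlaps the Runx3 window. The windows are shown 5′ to 3′ on the strand of the gene because they are where these members are alike; capitals mark the RUNX motif.
Runx1, chr16:92826025-92826324, minus strand: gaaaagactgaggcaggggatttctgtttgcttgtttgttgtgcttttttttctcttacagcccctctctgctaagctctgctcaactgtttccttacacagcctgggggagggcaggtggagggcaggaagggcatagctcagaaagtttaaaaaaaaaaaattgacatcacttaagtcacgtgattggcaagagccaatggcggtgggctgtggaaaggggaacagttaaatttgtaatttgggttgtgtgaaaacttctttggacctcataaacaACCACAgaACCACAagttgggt
Runx2, chr17:44814578-44814877, minus strand: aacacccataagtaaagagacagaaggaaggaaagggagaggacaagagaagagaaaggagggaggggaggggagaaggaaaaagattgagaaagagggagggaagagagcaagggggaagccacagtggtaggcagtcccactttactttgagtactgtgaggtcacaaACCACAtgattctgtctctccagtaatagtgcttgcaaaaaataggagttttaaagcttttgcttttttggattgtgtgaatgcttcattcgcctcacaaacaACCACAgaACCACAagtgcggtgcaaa
Runx3, chr4:135120395-135120694, plus strand: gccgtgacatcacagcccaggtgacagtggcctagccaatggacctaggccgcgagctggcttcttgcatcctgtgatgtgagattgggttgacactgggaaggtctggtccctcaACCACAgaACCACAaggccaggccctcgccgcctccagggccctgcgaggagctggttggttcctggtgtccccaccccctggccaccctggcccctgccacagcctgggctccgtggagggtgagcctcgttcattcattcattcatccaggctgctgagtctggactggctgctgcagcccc
The tandem begins at base 279 of the Runx1 window, 274 of the Runx2 window and 117 of the Runx3 window, and Runx2 has a further RUNX motif upstream of it. A forkhead motif, TGTTTAC or its reverse complement GTAAACA, lies in 0 of the 13 windows and in 3.65% of all windows, which says only that these letters are not in those windows. The arrays measured no binding, and which promoter's transcripts each probe detects was not tested.

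Runx1, a partner of Foxp3 in its complexes, did not pass in any comparison of the main fits, and its signal went with the slide. The tested probe, A_52_P202358, spans chr16:92667924-92698376 on the minus strand of mm7, 30453 bases of genome, so it crosses an intron. Its log2 signal was 9.20, 9.76 and 8.15 in Treg and 8.05, 9.27 and 7.92 in T-effector samples with IL2 alone, and 9.63, 8.19 and 9.76 in Treg and 9.67, 8.25 and 9.53 in T-effector samples with TGFb. Over all conditions it was 9.27 to 9.78 on slide D, 8.72 to 9.67 on slide E, 7.98 to 8.25 on slide B, 7.92 to 8.15 on slide C and 7.90 to 9.25 on slide A. Every signal on slide D was above every signal on slides A, B and C. A further probe, A_51_P206585, did not follow them: it had 6.82 to 7.60 on slide D and 7.64 to 7.95 on slide B. The fitted ratio of the tested probe was 0.66 ± 0.24 with IL2 alone (limma adjusted p = 0.100), and the further probe had -0.11 (limma adjusted p = 0.690), so the probes differ in sign. The ratio of the tested probe with IL2 alone passed with the spatial trend removed (0.66, limma adjusted p = 0.0214). It also passed without IL6 arrays 1 or 2 (0.630 to 0.675, limma adjusted p = 0.0171 to 0.0484).

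Runx3, which silences Cd4 and supports cytotoxic genes in T cells, showed the same split by slide at its tested probe, A_51_P494992 (chr4:134554481-134554540, plus strand, mm7). On slide D its log2 signal was 7.78 to 8.48, and on slide B 7.14 to 7.55. Its ratio was 0.45 ± 0.15 with IL2 alone (limma adjusted p = 0.0750) and -0.27 ± 0.13 with TGFb and IL6 (limma adjusted p = 0.261), and no difference passed in the main fits. With Agilent's processed signals or the spatial trend removed, the ratio with IL2 alone passed (0.43 to 0.52, limma adjusted p = 0.00146 to 0.00416). So did the difference of TGFb minus IL2 (-0.58 to -0.42, limma adjusted p = 0.0144 to 0.0166). With TGFb the array ratios of the tested probe were -0.46, 0.12 and 0.04, and those of a further probe, A_52_P666059, were 1.36, 0.55 and 0.59. The probes of Runx3 disagree under TGFb, on array 1 also in sign, and no probe of it passed in any ratio of the main fits. The mean of its probes gave a ratio of 0.37 with TGFb that passed (limma adjusted p = 0.0297), opposite in sign to the tested probe.

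**Figure D5:**
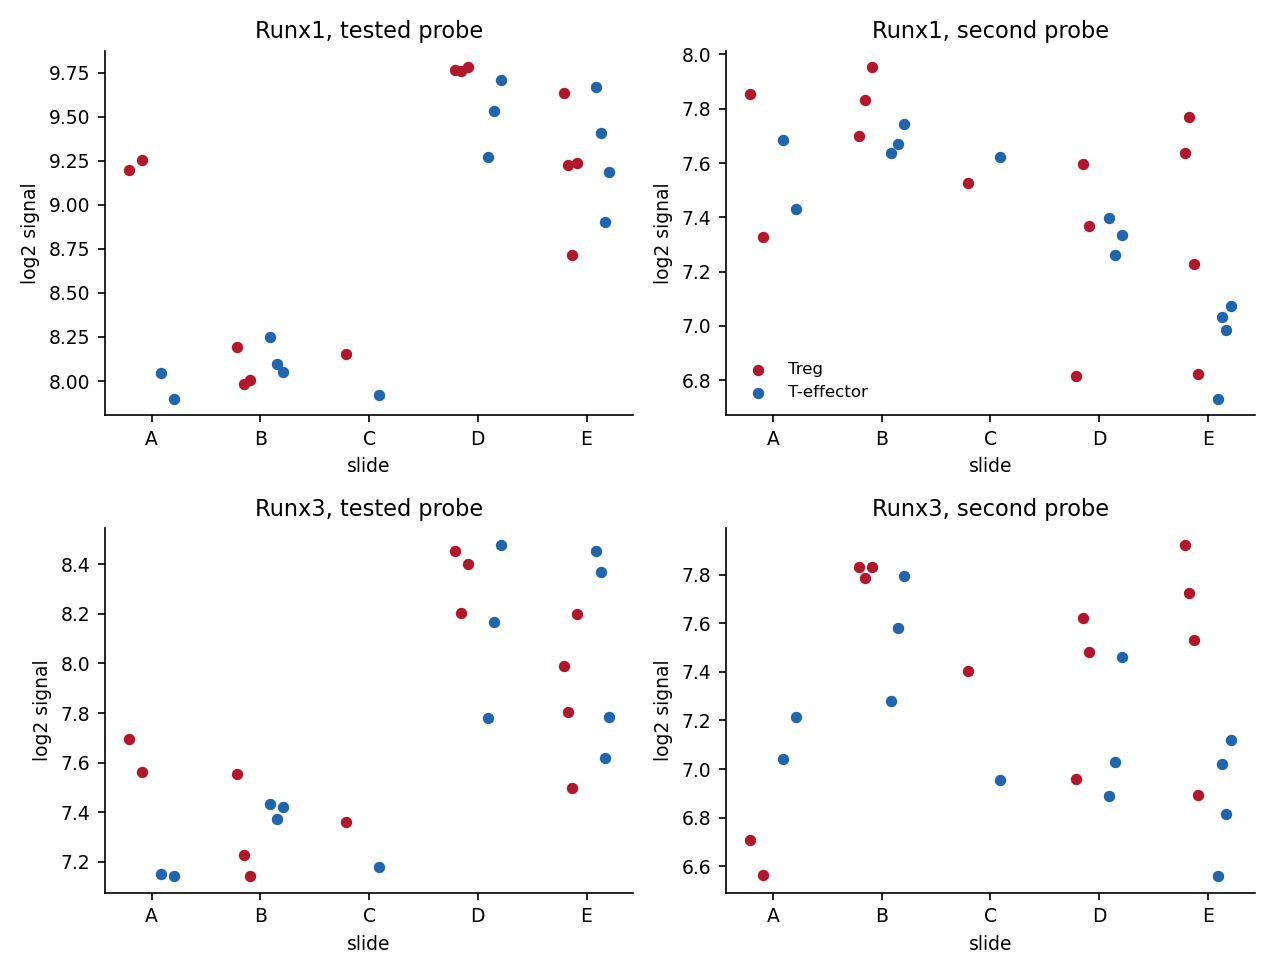
Log2 signal of each channel on slides A to E for the tested and further probes of Runx1 and Runx3, with Treg in red and T-effector in blue. The tested probe of Runx1 is at 9.27 to 9.78 on slide D and 7.98 to 8.25 on slide B, while its further probe is at 6.82 to 7.60 and 7.64 to 7.95.

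Cbfb, the subunit that stabilises all Runx proteins on DNA, had a bright and steady signal at its tested probe, A_51_P300216 (chr8:103816376-103816435, plus strand, mm7). Treg channels had 11.43 to 12.27 and T-effector channels 11.61 to 12.48, and the 2 kinds of sample overlapped except with IL2 alone, where Treg had 11.66, 11.73 and 11.59 and T-effector samples 11.97, 11.79 and 12.12. The ratio there was -0.37 ± 0.16 and did not pass (limma adjusted p = 0.156). It passed with Agilent's processed signals, with median centring and with the spatial trend removed (-1.38 to -0.36, limma adjusted p = 0.0041 to 0.0202). Within each kind of sample, the differences of Cbfb between conditions ran from -0.10 to 0.40 and none passed. The highest, in Treg samples with TGFb and IL6 over IL6, was 0.40 ± 0.17 (limma adjusted p = 0.159). With slide as a block it was 0.52 and passed (limma adjusted p = 0.0399). The further probe of Cbfb had ratios between -0.05 and 0.01.

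Of 15 genes known to be regulated by Runx factors in T cells, the Treg ratio was higher for 3 and lower for 4 with IL2 alone, 1 and 2 with TGFb, 2 and 1 with TGFb and IL6, and 2 and 1 with IL6. Of all genes 7.42% were higher and 3.55% lower with IL2 alone, 4.15% and 1.83% with TGFb, 3.51% and 2.35% with TGFb and IL6, and 3.77% and 2.1% with IL6, and the list's medians in this order were -0.21, -0.19, 0.13 and -0.26. Itgae, the integrin chain CD103, had the highest ratio of the list in each condition: 2.46 ± 0.18 under IL2 alone, 3.22 ± 0.18 under TGFb, 2.49 ± 0.15 under both cytokines and 2.77 ± 0.18 under IL6. With TGFb over IL2 alone it rose by 2.46 ± 0.25 in Treg and 1.70 ± 0.25 in T-effector samples, while Prf1, which encodes perforin, fell by 1.42 ± 0.22 in T-effector samples. Of 11 measured co-repressors and relatives of Runx factors, only Tle3, a Groucho co-repressor, passed between Treg and T-effector samples, at 1.52 ± 0.25 under TGFb and 0.91 ± 0.21 under both cytokines (1 of 11 in each, against 5.98% and 5.85% of all genes in either direction). Hipk2, a kinase that acts on Runx complexes, rose by 1.24 ± 0.19 in Treg and 1.58 ± 0.19 in T-effector samples when IL6 was added to TGFb.

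Foxp1, a forkhead factor that keeps naive T cells quiescent, had 3 probes and passed in no comparison at its tested probe, A_52_P225700 (chr6:99015248-99015307, minus strand, mm7). Its log2 signal was 10.46 to 11.74 in Treg channels and 10.55 to 11.77 in T-effector channels, and Treg was higher on 9 of 13 arrays. Its ratio was 0.39 ± 0.22 with IL2 alone (limma adjusted p = 0.274) and 0.06 ± 0.22 with TGFb (limma adjusted p = 0.929). A further probe, A_52_P276792, which spans 4338 bases and so crosses an intron, had -0.33 with IL2 alone (limma adjusted p = 0.308) and 0.49 with TGFb (limma adjusted p = 0.199). The signs differ between the probes with IL2 alone, and no probe passed in the main fits. The ratio of the tested probe with IL2 alone passed with the spatial trend removed (0.39, limma adjusted p = 0.0325).

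Foxo3, listed under its older name Foxo3a, was near background. The probe used, A_52_P373852 (chr10:41991402-41991461, minus strand, mm7), was well above background in 3 of 13 Treg and 3 of 13 T-effector channels, and the other, A_51_P145507, in 1 of 13 and 1 of 13, so it did not pass the filter. The log2 signal of the probe used was 5.94 to 6.61 over all channels. No fold change or direction is read from a signal this close to background, and no comparison passed.

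In the remaining comparisons of the Treg over T-effector ratio between conditions, 0 of 8 members passed for IL6 minus IL2, where 0% of all genes did (limma; 0 members and 683 of 19900 genes had an unadjusted p under 0.05). For TGFb with IL6 minus IL6, 0 of 8 members passed, where 4.04% of all genes did (2 members, Runx2 and Runx3, at an unadjusted p under 0.05). The median over the 8 members, with the near-background value of Foxo3 among them, was -0.38 for the ratio with TGFb minus IL2 alone, against -0.02 over all genes. This median depends on the probes tested. Further probes of Foxp1 (A_52_P276792), Runx1 and Runx3 changed the other way. Their mean array ratios were -0.43, -0.17 and 0.06 with IL2 alone and 0.60, 0.43 and 0.84 with TGFb. The further probes of Foxo1 and Runx2 (A_52_P415319) kept the direction of the tested probes. Of 12 measured other Fox family genes, Foxj2 at 0.51 ± 0.14 and Foxk1 at 0.39 ± 0.11 were higher in Treg with IL2 alone (2 of 12, against 7.42% of all genes), and 0 passed between Treg and T-effector samples in the other 3 conditions.

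Over the 26 channels, the signals most like that of Foxp3 were those of 2210408F21Rik (Pearson r = 0.924), Phyhd1 (0.921), Atxn7 (0.920), the transcript AK034548 (0.914) and Erdr1 (0.901), as a description with no test. Those most like Foxo1 were Jun, a part of the AP-1 factor (0.950), and Sgk1 (0.945), and those most like Runx2 were Nktr (0.879) and Neat1 (0.863). For Runx1 they were Lypd2 (0.973) and Tlr9 (0.971), and for Runx3 Olfr1444 (0.983) and the array transcript TC1489795 (0.981). For Cbfb they were Pcnp (0.945) and Zdhhc6 (0.934), for Foxp1 Slc25a37 (0.851) and Tle4 (0.838), and for the near-background signal of Foxo3 Cd226 (0.815) and Tmem143 (0.812). The channels share arrays and slides, and for Runx1 and Runx3 the likeness includes the split by slide described above. For Foxp3 it includes the Treg and T-effector split, where the kind of sample and the mice used cannot be told apart.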

How the data were processed

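Each of 13 two-colour Agilent arrays (45018 spots, 1639 of them controls, 41174 non-control probes) paired Treg with T-effector RNA of mouse CD4+ cells. Per the file headers the deposited spot values are intensities, namely mean signal and local background of each dye. They were made with Agilent Feature Extraction 9.5.1.1, per the submitters' processing notes. The same files hold intensities after that program's background subtraction and dye normalization, per the file headers, which served as an alternative, and the log10 ratio of Cy5 over Cy3 that it computed from them, per the file headers. In the authors' deposited table each probe has a log2 value for each condition. Its values correlated at 0.657 to 0.711 across probes with the mean log ratios computed here, in the direction Treg over T-effector, with column medians of -0.0831 to -0.016; its exact scale and centring stay unknown.

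The dye of each sample came from the labels. R 4.3.3 and limma 3.58.1 were used: normexp background correction (offset 50; spots flagged for their local background did not enter the parameter fit), then loess of each array's log ratios. Probes detected well above background in 3 or more of 26 channels and present on at least 10 arrays were kept (28923 probes), and the brightest probe of each gene was tested (19900 genes, 135 with a missing array, none of them a member). Treg over T-effector log2 ratios were fitted over 13 arrays with a dye term (8 residual degrees of freedom). Conditions within each kind of sample were fitted by a separate-channel model (17 residual degrees of freedom, intraspot correlation 0.45). Adjustment was by Benjamini-Hochberg over all genes, threshold 0.05. The TGFb arrays 1, 2 and 3 lie on the slides, and have the dyes, of the same-numbered arrays with TGFb and IL6. Deviations of such arrays correlated at 0.535 to 0.757 (ratio), 0.401 to 0.697 (Treg channels) and 0.282 to 0.85 (T-effector channels), so they were taken as pairs for a replicate block.

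Names came from RefSeq by accession for 23082 probes, and otherwise by symbol, synonym or the files' own name. Promoter windows came from RefSeq (GRCm38.p6) through Python 3.11.15; probe positions are those of the array files (mm7). The genes named are the 8 members, up to 3 genes past the threshold with the largest difference of each pathway list (of which a selection is given), and the genes most alike in signal (5 for Foxp3, 2 for each other member). Members, lists and tests were chosen with earlier results of these data known. Alternatives were other background corrections, centring, spatial detrending, filters, probe rules, slide or pair as a block, and each array left out; omission of slides B and E was added after seeing the data. The fits were tested on simulated data. The number of arrays limits the precision.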

Additional observations from a re-analysis of the deposited data

Results flagged for a closer look

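Foxo1 and Runx2 were each set apart because the difference between TGFb and IL2 alone was not the same in Treg and T-effector samples by the test of that difference itself. For Foxo1 the change in Treg exceeded that in T-effector samples by 0.67 ± 0.15 (log2, limma adjusted p = 0.0271), with 0.83 in Treg and 0.17 in T-effector samples. For Runx2 it was -0.66 ± 0.11 (limma adjusted p = 0.00781), with -0.70 in Treg and -0.04 in T-effector samples. On slide D, the only slide with both conditions, the differences were 0.57 and -0.85 with 1 array per condition. In the further probe of each gene the sign was the same, at 0.26 for Foxo1 (limma adjusted p = 0.305) and -0.41 for Runx2 (limma adjusted p = 0.222). With all spots in the background model neither passed: Foxo1 had 0.67 (limma adjusted p = 0.0868) and Runx2 had -0.39 (limma adjusted p = 0.303). Runx2 did not pass with median centring either, at -0.20 (limma adjusted p = 0.4). Without slide B neither passed, at 0.74 for Foxo1 (limma adjusted p = 0.0798) and -0.67 for Runx2 (limma adjusted p = 0.058). Foxo1 also missed the threshold without IL2 arrays 1 or 2 or TGFb arrays 1 or 3 (0.55 to 0.72, limma adjusted p = 0.0697 to 0.122), and Runx2 without TGFb array 3 (-0.59, limma adjusted p = 0.0855). In this comparison 5.89% of all genes passed.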

How the results depend on the processing

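Counts here are of 32 pairs of member and comparison in each family. For Treg over T-effector ratios 8 passed, 16 with the spatial trend removed, and 6 to 10 with each array left out. For ratios between conditions 2 passed, against 5 with Agilent's processed signals, 0 with the background model on all spots, 4 with median centring, 6 with the spatial trend removed, 4 with slide as a block, 0 without slide B, and 0 to 2 with each array left out. Within Treg samples 6 passed, against 1 without slide E and 2 to 6 with each array left out. Within T-effector samples 2 passed, against 7 with slide as a block, 4 with the mean of a gene's probes, and 2 to 3 with each array left out. For TGFb with IL6 over TGFb, the replicate block moved the count from 0 to 1 for the ratio and from 1 to 2 in T-effector samples, and left it at 2 in Treg samples. Median centring reversed Foxo1 (-0.58) and Runx2 (-0.12) in the ratio under IL6, and values of Foxo1 that had not passed then passed with the opposite sign: -0.63 for the ratio under IL2 alone and 0.74 for TGFb with IL6 minus IL6. The mean of a gene's probes did so for the Runx3 ratio under TGFb (0.37). Median centring also moved the median of all genes by -0.30 for the ratio with IL2 alone and by 0.43 for TGFb minus IL2. The cause of these changes was not tested. Of 3144 recomputed values 3038 stayed on the same side of the threshold, 396 past it and 2642 not past it, and 198 of those not past it had the opposite sign. Another 47 no longer passed, 54 newly passed in the same direction, and the 5 just named were reversed. The Foxp3 ratios under IL2, TGFb with IL6 and IL6, the Foxo1 ratio under TGFb, its rise in Treg with TGFb over IL2, and its rise in T-effector samples with TGFb and IL6 over TGFb and over IL6 passed under every alternative run. Foxo3 stayed near background, so its signal sets no limit on a change.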
